A study of Homo sapiens with 2 samples.

Results

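The Rab GTPases, synaptotagmins and synaptotagmin-like proteins were taken as the genes whose probe sets the array annotation names alone and whose symbol is RAB with a number and an optional letter A to D, SYTL1 to SYTL5, or SYT with a number. Each probe set pools several short probes against the same transcript. The rule found 184 probe sets for 78 genes, namely 57 Rab, 16 SYT and 5 SYTL genes, and used no measured value. The study hybridised 2 arrays, both labelled as RNA of A375SM, a human melanoma line of metastatic origin derived from A375. One array is labelled as cells stably transduced by lentivirus with a small hairpin RNA (shRNA) against PAR-1 (the PAR-1-labelled array), and the other as cells given a non-targeting shRNA without homology to human genes (the NT array). PAR-1 is a receptor for thrombin, and its gene is F2R. Whether each transduced line was a clone or a pool is not given in the sources used here.

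Rab proteins are small GTPases that mark the membranes of a cell. Each one is switched on by an exchange factor, recruits effectors that move, tether or fuse vesicles, is switched off by an activating protein, and is held on membranes by prenyl groups. In pigment cells RAB27A sits on mature melanosomes and binds melanophilin (MLPH), which recruits the actin motor myosin Va (MYO5A), while RAB38 and its close relative RAB32 direct the carriers that bring melanin enzymes to the growing melanosome. The SYTL proteins are effectors of RAB27A and RAB27B that join vesicles to the plasma membrane through paired C2 domains, and the related synaptotagmins are membrane proteins with C2 domains, several of which sense calcium in vesicle fusion.

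To place the genes on the sequence, the reference promoter windows of RefSeq (build GRCh38.p14) were read, each holding 250 bases before and 50 after an annotated start. The table held 89 windows for 60 of the 78 genes. RAB38, RAB26, RAB33B, SYT17 and SYTL2 were among those without an entry. Windows are shown for RAB27A with its relative RAB27B, which differed in their readings, for RAB32 and RAB31, for SYTL5, the lowest gene of the set, and for SYT14. Capitals mark a match to any of 3 motifs searched on both strands. These were CACGTG, the E-box core; CATGTG, read as CACATG on the other strand, the core of the M-box bound by the melanocyte factor MITF; and TGACGTCA, the cAMP response element. None of the motifs contains another.
RAB27A (chr15:55319074-55319373, minus strand): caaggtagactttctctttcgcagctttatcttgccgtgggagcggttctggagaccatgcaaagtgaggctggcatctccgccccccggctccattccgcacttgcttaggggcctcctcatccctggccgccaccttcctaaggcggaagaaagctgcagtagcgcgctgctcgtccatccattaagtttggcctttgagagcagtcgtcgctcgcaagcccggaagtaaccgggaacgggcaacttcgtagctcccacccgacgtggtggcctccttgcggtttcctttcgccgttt
RAB27B (chr18:54717607-54717906, plus strand): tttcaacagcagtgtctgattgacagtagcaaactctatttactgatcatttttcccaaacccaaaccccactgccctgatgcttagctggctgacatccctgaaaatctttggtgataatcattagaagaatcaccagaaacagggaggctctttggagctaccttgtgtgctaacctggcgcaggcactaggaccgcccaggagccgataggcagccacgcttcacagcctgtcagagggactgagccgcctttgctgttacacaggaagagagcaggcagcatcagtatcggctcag
RAB32 (chr6:146543583-146543882, plus strand): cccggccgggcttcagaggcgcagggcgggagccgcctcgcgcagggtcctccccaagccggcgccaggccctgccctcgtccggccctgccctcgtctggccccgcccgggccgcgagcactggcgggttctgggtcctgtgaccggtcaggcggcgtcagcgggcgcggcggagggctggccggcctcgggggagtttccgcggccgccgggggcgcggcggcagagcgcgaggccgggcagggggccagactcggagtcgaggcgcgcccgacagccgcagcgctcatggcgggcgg
RAB31 (chr18:9708051-9708350, plus strand): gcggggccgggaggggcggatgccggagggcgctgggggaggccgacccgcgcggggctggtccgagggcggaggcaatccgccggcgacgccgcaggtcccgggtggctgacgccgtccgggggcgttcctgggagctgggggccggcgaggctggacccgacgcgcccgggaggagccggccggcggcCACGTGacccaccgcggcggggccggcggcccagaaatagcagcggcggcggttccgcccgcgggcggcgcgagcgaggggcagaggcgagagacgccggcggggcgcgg
SYTL5 (chrX:38006303-38006602, plus strand): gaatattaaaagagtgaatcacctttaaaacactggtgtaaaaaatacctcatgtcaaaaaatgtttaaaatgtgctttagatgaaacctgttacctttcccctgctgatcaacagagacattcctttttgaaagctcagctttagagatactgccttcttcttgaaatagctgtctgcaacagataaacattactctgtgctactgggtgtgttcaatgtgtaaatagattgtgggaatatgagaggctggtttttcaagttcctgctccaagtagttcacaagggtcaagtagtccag
SYT14 (chr1:209937967-209938266, plus strand): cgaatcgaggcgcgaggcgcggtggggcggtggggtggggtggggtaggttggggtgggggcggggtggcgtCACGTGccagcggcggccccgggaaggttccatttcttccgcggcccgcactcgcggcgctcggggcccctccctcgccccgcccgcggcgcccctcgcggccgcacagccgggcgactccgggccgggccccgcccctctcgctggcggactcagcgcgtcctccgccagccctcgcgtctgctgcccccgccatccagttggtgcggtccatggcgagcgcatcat

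An E-box core began 60 bases before the start of RAB31 and 178 bases before that of SYT14, and the other windows shown held none of the 3 motifs. Among all 89 windows of the genes 8 held CACGTG (8.99%), against 7.26% of all 35116 windows in the table. CATGTG was in 4 of the 89 (4.49%, against 11.1% of all windows) and TGACGTCA in 1 (1.12%, against 1.85%). Of the 6 windows that belong to genes at least 2-fold higher 1 held CACGTG, as did 1 of the 6 that belong to genes at least 2-fold lower, and neither set held either of the other motifs. Base composition varied widely among the windows shown, from 37.7% G and C at SYTL5 to 82.7% at RAB31. For RAB27A, RAB27B and SYTL5, which had several windows, only 1 is shown. The SYTL5 window lies inside the gene (37888915 to 38128820) and so belongs to an internal annotated start. Its other window held 31.0% G and C. These matches describe letters in a window and not binding.

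With 1 array in each group there is no replicate, no test and no p-value, and every difference below is between 2 arrays. Values are the deposited linear intensities, and a gene stands as its brightest probe set. Intensities under the median of an array's non-control probe sets, which was 43.8 for the PAR-1-labelled and 45.9 for the NT array, were set to that median, called the floor. Where 1 array was at the floor the fold is a lower bound, and it is written with "at least". A gene was described as higher or lower where it differed at least 2-fold. The only spread available is that between probe sets of a gene. Their log2 differences had a pooled SD of 0.43 around the gene mean over the 34 genes of the set with several probe sets above the floor, and 0.46 over all genes.

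The arrays stood apart in ways that bear on their labels, and whether both hold cells of the same line was not tested. F2R itself was read by 2 probe sets that differed in direction, at 956 on the PAR-1-labelled array against 1666 on the NT array (log2 difference -0.80) and at 225 against 94.4 (1.26). Genes of the Y chromosome read higher on the PAR-1-labelled array in 11 of 11 measured cases, each by 2-fold or more (median 2.91 in log2). A gene counted as measured if it exceeded the floor on at least 1 array. For any of the 11 under the NT floor the direction followed from passing, and the fold is a lower bound. How many these were was not counted. Of 8 melanocyte markers 6 were measured and 5 of these were at least 2-fold lower on that array, with a summed intensity of 5012 against 11992. MITF was at 2190 against 5256 and MLANA at 120 against 1038. SOX10 was within 2-fold by its brightest probe set, at 1162 against 1434 (log2 difference -0.30). Its other measured probe set stood at -1.76, which gave a mean of -1.03. TYRP1 was below the floor on both arrays (2.22 and 39.2). Markers of other cells were mostly under the floor on both arrays, among them PTPRC of leukocytes (22.5 and 17.0 by its brightest values), VWF of endothelium (5.61 and 21.3), KRT14 of keratinocytes (1.84 and 4.95) and COL3A1 of fibroblasts (8.24 and 12.6). The summed measured markers were 77.3 against 45.8 for endothelium (1 of 5 markers) and 59.4 against 43.0 for leukocytes (1 of 6). For fibroblasts the sum was 561 against 778 (4 of 6), most of it LUM at 356 against 529, and COL1A1 was 2.18-fold lower. For keratinocytes the sum was 2754 against 2919 (2 of 6), nearly all of it KRT10 at 2707 against 2903. The part that any of these differences plays in the results below was not tested, and fewer cells of a kind and less RNA per cell cannot be told apart in such bulk RNA.

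Of the 78 genes, 65 exceeded the floor on at least 1 array. On the PAR-1-labelled array 7 of them were past the 2-fold limit on the higher side (10.8%) and 6 on the lower side (9.23%). Over all 13233 genes measured the shares were 8.59% higher and 5.63% lower, so the share of higher genes was near the background. The share of lower genes was above it here by a difference that has no test. Without a floor 10 of these 65 genes were lower (15.4%) and 8 higher (12.3%). All 19775 genes without a floor had 15.9% lower and 13.1% higher. These shares are not of like sets, because the 65 genes had passed the floor and the 19775 were not filtered. Whether the excess of lower genes holds without a floor cannot be read from them. The median log2 difference was -0.07 over the 65 genes and -0.0022 over all genes. The higher genes were RAB27B, SYTL1, RAB3B, RAB33B, RAB26, RAB32 and RAB31, and the lower ones SYTL5, SYT11, RAB38, SYT17, SYT14 and RAB7B. Among the Rab genes alone 6 of 52 were higher and 2 lower, and among the SYT and SYTL genes 1 of 13 was higher and 4 lower.

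Filtering shaped these counts. Of the 65 genes 9 exceeded the floor on 1 array only, RAB26, RAB33A, RAB42 and SYTL1 on the PAR-1-labelled array and RAB37, RAB39B, RAB3C, RAB43 and SYT12 on the NT array, so their direction followed from passing. Over the 56 genes above the floor on both arrays 5 were higher and 6 lower, where all 11176 such genes had 7.74% higher and 5.41% lower. With the floor at the 75th percentile of each array 2 of 37 measured genes were higher (RAB31 and RAB32) and 2 lower (RAB38 and SYTL5), or 5.41% each, against 7.20% higher and 3.71% lower over the 8399 genes measured at that floor. Under the floor on both arrays were 13 genes, namely RAB3A, RAB4B, RAB6A, RAB25, RAB40A and the synaptotagmins SYT2, SYT3, SYT4, SYT5, SYT7, SYT9, SYT13 and SYT16. RAB6A and RAB4B were also read by probe sets that the annotation assigns to several genes, which are described apart.

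**Figure D1:**
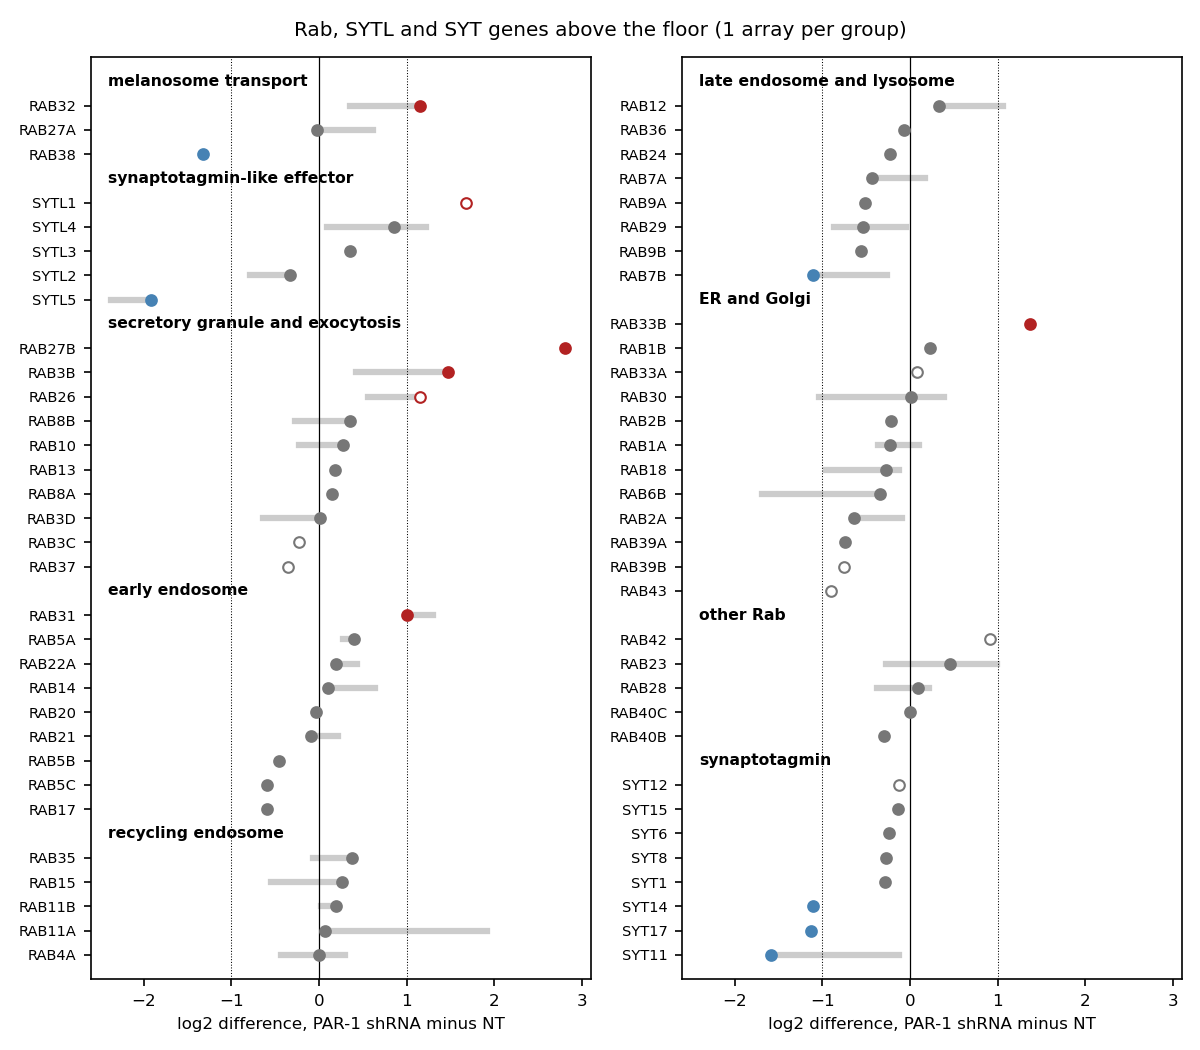
Log2 difference in intensity (PAR-1-labelled array minus NT array, 1 array each) for the 65 genes above the floor, grouped by role. Points are the brightest probe set, open where 1 array was at the floor, grey bars span the gene's probe sets, dotted lines mark 2-fold, and red and blue mark genes past it; RAB27B lies farthest to the right at 2.80 and SYTL5 farthest to the left at -1.92.

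The melanosome Rabs did not share a direction. RAB38 (chromosome 11, 87803715 to 88175443) was read by 1 probe set, at 2037 on the PAR-1-labelled array and 5105 on the NT array. Its level was thus 39.9% of that on the NT array, 2.51-fold lower, with a log2 difference of -1.33. RAB38 stayed at least 2-fold lower under each of the 9 alternative settings, and it has no second probe set to set beside this one.

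RAB32 (chromosome 6, 146543833 to 146554953), which also anchors protein kinase A at membranes, moved the other way. Its brightest probe set read 896 against 404, 2.22-fold higher with a log2 difference of 1.15. The dimmer probe set read 96.8 against 75.9, a log2 difference of 0.35. Both were above 0, but only the brighter one passed 2-fold. Their mean was 0.75, so the call for RAB32 rests on the brighter probe set, of the _s_at type that can match several transcripts, and without that type RAB32 stood at 0.35.

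RAB27A (chromosome 15, 55202966 to 55319123) had 5 measured probe sets. The brightest read 663 against 674, a log2 difference of -0.02. The others read 607 against 587 (0.05), 519 against 386 (0.42), 261 against 195 (0.42) and 204 against 133 (0.62). None of the 5 passed 2-fold, 4 of them lay above 0, and their mean was 0.30. The brightest ran from -0.14 with quantile normalisation to 0.04 with median centring. All are of the _s_at or _x_at types, so no value remained for RAB27A without these.

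MLPH and MYO5A, which hold melanosomes on actin, were within 2-fold by every measured probe set. MLPH, which links RAB27A to the motor, was at 2151 against 2182 (log2 difference -0.02), and MYO5A, the motor itself, at 1602 against 1803 (-0.17, and down to -0.88 by another probe set). Of 8 listed RAB27 effectors and motors 5 were measured. None passed 2-fold, but EXPH5, RPH3AL and MYO7A had 1 array at the floor and give only lower bounds. Near equal readings thus rest on MLPH, read by 1 probe set, and on the brightest probe set of MYO5A. The mean over the 3 measured MYO5A probe sets was -0.48. Among 17 measured genes of the BLOC and AP-3 complexes, which build lysosome-related organelles, 2 were higher and 1 lower. These shares of 11.8% and 5.88% lay near the 8.59% and 5.63% of all genes. AP3S1, the small subunit of the AP-3 coat, read 5496 against 1878 (2.93-fold higher), HPS3, a subunit of BLOC-2, 1135 against 516 (2.20-fold higher, and 0.53 in log2 by another probe set), and BLOC1S3 61.7 against 126 (2.04-fold lower). HPS1 and HPS4, which together form the exchange factor for RAB32 and RAB38, were at 360 against 280 (0.36) and 116 against 88.4 (0.39), within 2-fold.

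**Figure D2:**
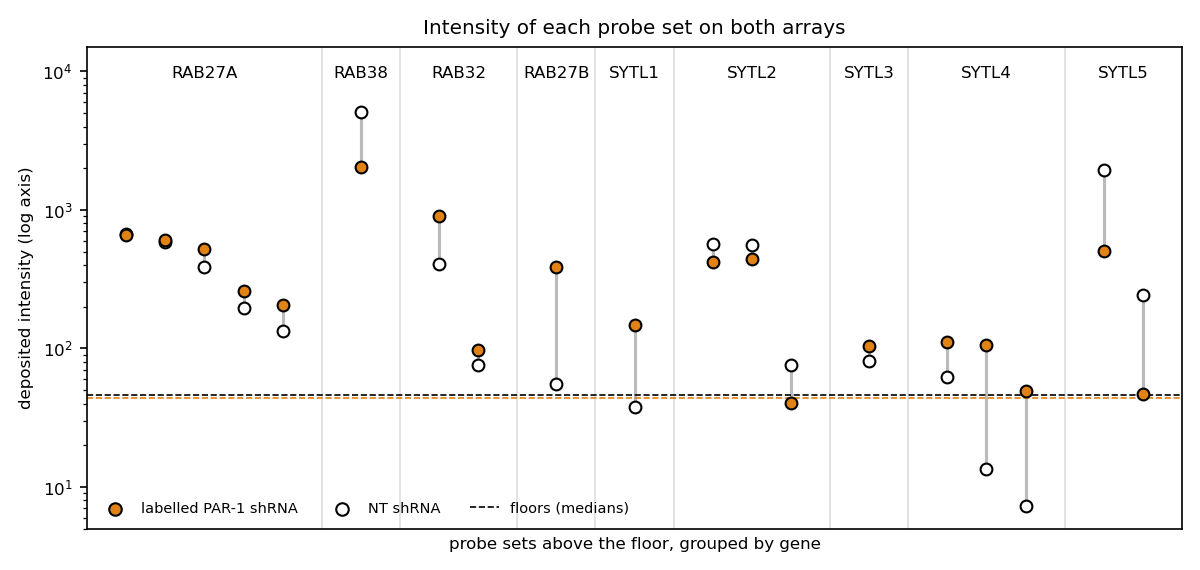
Deposited intensity (log axis) of each probe set above the floor for the melanosome Rabs, RAB27B and the 5 SYTL genes, with filled points for the PAR-1-labelled array and open points for the NT array. Dashed lines are the floors (43.8 and 45.9); RAB38 and both SYTL5 probe sets have the open point on top, and RAB27B, SYTL1 and all SYTL4 probe sets the filled one.

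RAB27B, the second RAB27 protein and a regulator of secretory granule and exosome release, showed the largest difference of the set. Its measured probe set read 386 on the PAR-1-labelled array and 55.4 on the NT array, 6.97-fold higher (log2 difference 2.80). The NT value lay just above the floor, and with the floor at the 75th percentile the log2 difference was 0.995, just under 2-fold. Its other 2 probe sets were below the floor on both arrays, at 43.0 against 26.6 and at 25.7 against 3.33.

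The SYTL effectors spread in both directions. SYTL5 was lower by both of its probe sets, at 509 against 1928 (3.79-fold, log2 difference -1.92) and at 47.2 against 243 (-2.37). SYTL5 was the 1 gene of the set whose probe sets, 2 or more, all passed 2-fold lower, and RAB31 the 1 gene for which all passed 2-fold higher, out of 34 genes with several. Over all 6555 genes with several probe sets above the floor 1.48% passed this rule as lower and 2.78% as higher. SYTL2, the effector that ties melanosomes to the plasma membrane, read 441 against 555 (-0.33), 421 against 568 (-0.43) and 40.2 against 75.8 (-0.79). All 3 lay below 0 and within 2-fold, but the last was under the floor on the PAR-1-labelled array and gives only a bound.

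SYTL1, an effector linked to granule secretion, was at 147 against 37.5, below the NT floor, and so at least 3.20-fold higher (1.68). SYTL4, also called granuphilin, a docking factor of insulin granules, read 112 against 62.1 (0.85), 107 against 13.5 (1.21) and 49.1 against 7.26 (0.09), the last 2 with NT values under the floor. All 3 were above 0, and 1 passed 2-fold. SYTL3 was at 104 against 81.3 (0.35). The 5 effectors thus held 1 gene at least 2-fold higher, 1 at least 2-fold lower and a median of 0.35. Of all genes 8.59% were higher and 5.63% lower. Over the 4 effectors above the floor on both arrays 0 were higher and 1 lower, with a median of 0.0087.

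The Rabs of secretory granules and exocytosis, RAB27B included, were on the higher side, with 8 of 10 measured genes above 0. This count was 7 with loess or quantile normalisation and 6 by the mean of probe sets. Of the 10 genes 3 were at least 2-fold higher and 0 lower, and the median was 0.23. Of all genes 49.8% lay above 0 and 8.59% were higher. The groups by role, here and below, were chosen with earlier results of these data known, so such shares describe and do not test. Over the 7 above the floor on both arrays 7 lay above 0 and 2 were higher. All genes above both floors had 50.7% above 0 and 7.74% higher. This restriction removed RAB26, which passed the floor only on the array where it is high. It also removed RAB37 and RAB3C, the genes below 0, which passed on the NT array only. RAB8B, RAB10 and RAB3D had other probe sets below 0, that of RAB3D having passed the floor on the NT array only. Besides RAB27B the genes at least 2-fold higher in this group were RAB3B, a Rab of regulated secretion, and RAB26, which is linked to secretory granules. RAB3B read 131 against 47.6 (2.76-fold). Its further measured probe sets read 61.4 against 25.4 and 70.0 against 25.4. With NT values under the floor they were at least 0.42 and 0.61. The mean of its probe sets, 0.83 and under 2-fold, is thus a lower bound. RAB26 read 102 against 42.6 (at least 2.22-fold higher). Its other probe set, at 67.7 against 5.65, was also under the NT floor and at least 0.56. Its mean of 0.86 is a lower bound too. The widely expressed exocytic Rabs were within 2-fold. RAB8A was at 809 against 728 (0.15) and RAB13, a Rab of cell junctions, at 2898 against 2548 (0.19). RAB10, which delivers glucose transporters, was at 2714 against 2247 (0.27). Its other probe set went the other way, at 1635 against 1923 (-0.23), which gave a mean of 0.02.

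Among early endosome Rabs RAB31, which carries cargo between Golgi and endosomes, stood apart from the rest of its group by size. Its 3 probe sets read 956 against 478, 848 against 380 and 639 against 260, with log2 differences of 1.001, 1.16 and 1.30. All were at or past 2-fold, the brightest by the narrowest margin, and it fell under 2-fold with loess and quantile normalisation. The RAB5 genes, whose products drive fusion of early endosomes, did not share a direction. RAB5A was at 2599 against 1966 (0.40), RAB5B at 209 against 288 (-0.46) and RAB5C at 492 against 742 (-0.59, and -0.60 by its other probe set). All were within 2-fold.

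Late endosome and lysosome Rabs were below 0 in 7 of 8 cases, with a median of -0.48 and 1 gene past 2-fold, where 50.2% of all genes lay below 0 and 5.63% were lower. Without _s_at and _x_at probe sets 5 of 7 lay below 0. This group too was chosen with earlier results known. The gene past 2-fold was RAB7B, at 113 against 243 (2.15-fold lower), whose other probe set stood at -0.27. RAB7A, the main Rab of late endosomes, was at 2394 against 3242 (-0.44), but 2 of its 4 probe sets lay above 0, at 0.17 and 0.13. RAB9A, which returns receptors to the Golgi, was at 725 against 1035 (-0.51). RAB29, a close relative of RAB32 and RAB38, was at 549 against 798 (-0.54), with its other probe sets at -0.86 and -0.04. RAB12 was the exception above 0, at 0.34 by its brightest probe set and 1.06 by the other.

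Recycling endosome Rabs held no gene past 2-fold by the brightest probe set. RAB11A, the main Rab of this compartment, showed the widest disagreement among probe sets, at 2948 against 2823 (0.06), 486 against 323 (0.59) and 179 against 47.4 (1.92). Its call thus depends on which probe set is read, and without the _s_at and _x_at types it was at 1.92. RAB4A was at 584 against 585 (-0.0027), and its probe sets ran from -0.43 to 0.29.

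Rabs of the endoplasmic reticulum and Golgi were below 0 in 8 of 12 cases, with a median of -0.25, against 50.2% of all genes. For RAB33A, RAB39B and RAB43 the sign followed from passing the floor on 1 array, and over the other genes 6 of 9 were below 0. RAB33B, a Golgi Rab with a part in autophagy, was the exception past 2-fold, at 132 against 51.3 (2.57-fold higher) by its only probe set. RAB1A, which governs transport from the endoplasmic reticulum, was at 7653 against 8930 (-0.22). RAB2A was at 1524 against 2373 (-0.64), and all 6 of its probe sets lay below 0. RAB6B, a form found mainly in neurons, had a brightest probe set at -0.35 and a dimmer one at 59.4 against 191 (-1.68). Of the remaining Rabs, RAB23, a negative regulator of hedgehog signalling, stood at 0.45, with probe sets from -0.27 to 0.99. None of the 5 measured passed 2-fold in the main setting, but RAB42 gives only a lower bound. RAB42 read 86.6 against 15.4, the latter under the NT floor (at least 0.91 in log2). It passed 2-fold with loess normalisation (1.04), without a floor and with the floor at the 25th percentile.

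All 8 measured synaptotagmins lay below 0 (7 of 8 with loess normalisation), and 3 were at least 2-fold lower, where 50.2% of all genes lay below 0 and 5.63% were lower. SYT12 passed the floor on the NT array only, and without it 7 of 7 lay below 0. Their intensities were low throughout, the highest by a gene's brightest probe set being 229 for SYT1 on the NT array. SYT11, a synaptotagmin that does not bind calcium, read 56.9 against 171 (3.01-fold lower, log2 difference -1.59), but its other probe set read 85.8 against 93.9 (-0.13). SYT17 was at 46.4 against 102 (2.19-fold lower) and SYT14 at 52.5 against 113 (2.15-fold lower), each by 1 probe set above the floor, and neither exceeded the 75th percentile floor on either array. SYT1, the calcium sensor of neurotransmitter release, was at 188 against 229 (-0.29) and SYT15 at 106 against 116 (-0.13).

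Whether probe sets of a gene agreed was therefore a second measure of each reading. All measured probe sets lay on the same side of 0 in 21 of the 34 genes that had several, and in 0 genes did they pass 2-fold on opposite sides. These counts were not made over all genes, so whether such agreement is usual on these arrays is not known. Where a probe set passed the floor on 1 array only, its sign largely followed from passing. This held for both RAB26 probe sets and for the dimmer measured ones of RAB3B and SYTL4. How many of the 21 genes it touches was not counted. Of the 13 genes called by the brightest probe set, those with a mean over probe sets under 2-fold were RAB32, RAB3B, RAB26, SYT11 and RAB7B. For RAB3B and RAB26 that mean is a lower bound, because it includes probe sets at the NT floor. The calls for RAB27B, RAB33B, SYTL1, RAB38, SYT14 and SYT17 rest on 1 measured probe set each.

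**Figure D3:**
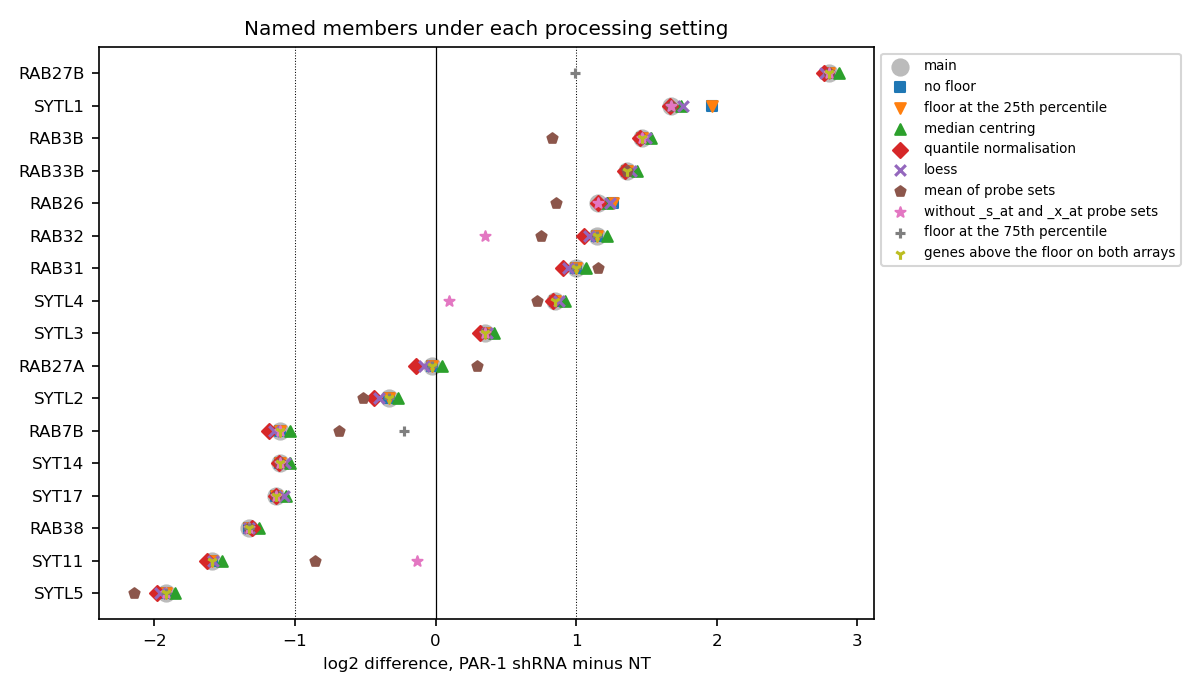
Log2 difference (PAR-1-labelled array minus NT array) of the genes past 2-fold, RAB27A and the SYTL genes under each processing setting, 1 mark per setting, with dotted lines at 2-fold. SYTL5 and RAB38 stay past 2-fold in every setting shown, while RAB27B drops to 0.995 with the 75th percentile floor and RAB32 to 0.35 without _s_at and _x_at probe sets.

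The genes that load and switch Rabs were called at shares set here beside those of all genes (8.59% higher and 5.63% lower), with no test. Of 6 measured genes for prenylation and recycling of Rabs, 0 passed 2-fold (median -0.02). Of 26 measured exchange factors 3 were higher and 0 lower (median 0.13), namely DENND2A (144 against 34.9, at least 3.13-fold), DENND1B (739 against 338, 2.19-fold) and RIN3 (290 against 144, 2.02-fold, with a mean over its probe sets of 0.55). The share of higher genes was 11.5%, and DENND2A had its NT reading at the floor.

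Among 30 measured activating proteins 2 were higher and 2 lower, 6.67% each and near the background (median -0.08). TBC1D2, a RAB7 activating protein, read 219 against 3.90 and was at least 4.77-fold higher (0.18 in log2 with the 75th percentile floor), and RABGAP1 read 718 against 290 (2.47-fold). TBC1D19 read 102 against 223 (2.19-fold lower) and TBC1D16, known in melanoma for its RAB5 activity, 492 against 994 (2.02-fold lower).

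Other Rab effectors held 3 higher (11.5%) and 0 lower genes of 26 (median -0.02), where all genes had 8.59% and 5.63%. RIMS2, a RAB3 effector of secretory release sites, read 297 against 40.8 (at least 6.47-fold higher, 0.62 in log2 with the 75th percentile floor) and had a further probe set at 2.53. OPTN, a RAB8 effector, read 1015 against 420 (2.42-fold), and RILPL2 701 against 303 (2.31-fold). Of 35 measured SNARE genes, whose products fuse the vesicles that Rabs tether, 0 were higher and 2 lower (5.71%, near the 5.63% of all genes). These were VAMP5 at 351 against 869 (2.48-fold) and STX12, an endosomal syntaxin, at 500 against 1006 (2.01-fold).

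**Figure D4:**
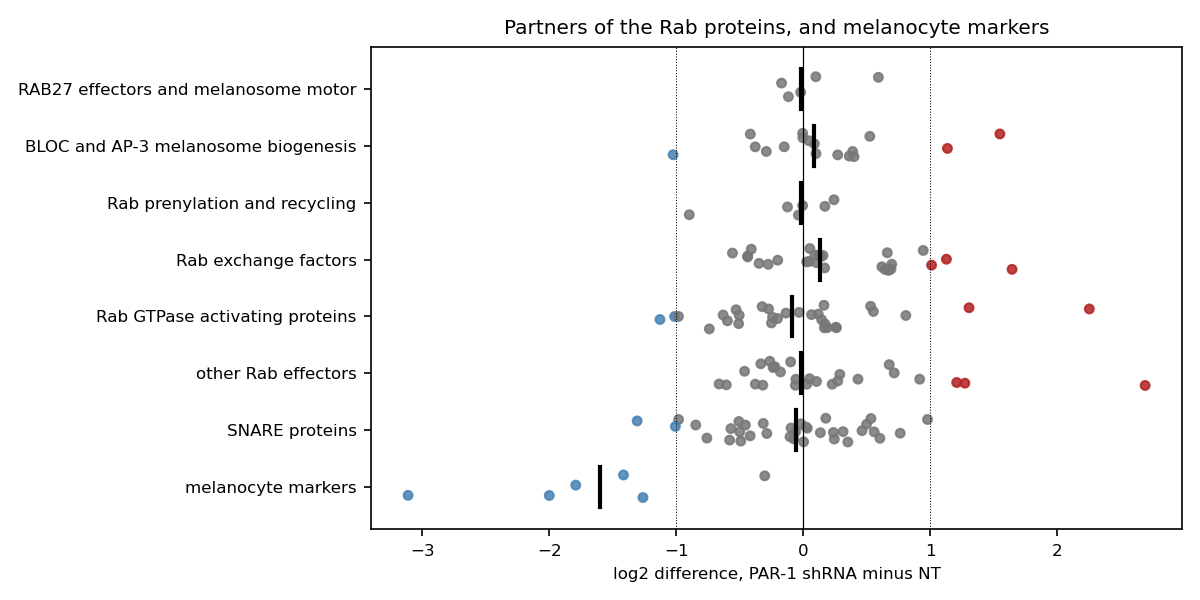
Log2 difference (PAR-1-labelled array minus NT array) of the measured genes in each list of Rab partners and of the melanocyte markers, 1 point per gene, with the list median as a bar and dotted lines at 2-fold. The 7 partner lists have medians from -0.08 to 0.13, and the melanocyte markers one of -1.60.

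The genomic surroundings of the leading genes were read from the 5 nearest measured genes on each side (GRCh38.p14). Of the 10 around RAB38, 3 (FZD4-DT, GRM5 and NOX4) passed the floor on the NT array only, which set their sign. The other 7 had a median of -0.07, with 6 of them below 0, and the 774 measured genes of chromosome 11 had a median of -0.11. One of them passed 2-fold, the melanin enzyme gene TYR, which starts at 89177875 and read 63.8 against 255. Around SYTL5 (X chromosome, 37888915 to 38128820) 7 of the 9 neighbours above the floor on both arrays were below 0, with a median of -0.46. They ran from -1.26 for DYNLT3 (2836 against 6816) to 1.34 for MID1IP1 (289 against 115). Around RAB27B (chromosome 18, 54717857 to 54895516) the neighbours ran from -0.56 to 0.52 with a median of 0.01, and 0 of 10 passed 2-fold. Near RAB27A the median was -0.11, with WDR72 (-2.06) and CCPG1 (-1.28) past 2-fold lower. Around RAB31 TWSG1 (1.74) and PPP4R1 (1.68) were past 2-fold higher and PIEZO2 (-1.58) lower. Around RAB26 3 of 10 were past 2-fold higher, SNHG19 (1.42), TRAF7 (1.32) and SYNGR3 (1.26, with its NT reading at the floor). Near RAB32 the median was 0.05, and SAMD5 (-1.02, with 1 array at the floor) was past 2-fold lower. The part of chromosomal position in these differences was not tested.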

How the data were processed

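Intensities of 54675 probe sets (62 controls) on 2 Affymetrix arrays, 1 per group, were used as the authors deposited them, on a linear scale, with summary software and scaling not given in the sources used here. Biotin-labelled cRNA was made from total RNA, per the labels' protocols. The PAR-1-labelled array spanned 0.148 to 23523 and the NT array 0.0793 to 23626. Genes were named from the array annotation, which gives 1 symbol to 41097 probe sets and several to 1801, and 41043 of the former matched the GRCh38.p14 RefSeq gene table. Log2 differences were computed after the floor, from the brightest probe set by mean log2 intensity, with pandas 2.3.3 in Python 3.11.15, and checked on simulated data. Detection calls were not used here. Described in full were RAB27A, RAB38, RAB32 and the SYTL genes, and with both intensities those past 2-fold and the 6 highest and 6 lowest; other genes of the set were chosen after their values were seen. The genes, roles and partner lists were chosen with earlier results of these data known. Alternatives changed the floor, the scaling, the probe set that stands for a gene and the probe set types. Precision is limited by the number of arrays.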

Additional observations from a re-analysis of the deposited data

Results flagged for a closer look

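One probe set outside the comparison, because the annotation assigns it to both RAB43 and the read-through gene ISY1-RAB43, was higher on the PAR-1-labelled array than on the NT control array, at 184 against 47.3 (log2 difference 1.96). The probe set named for RAB43 alone differed the other way, at 35.2, below the floor, against 82.1 (-0.91).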

How the results depend on the processing

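The count of genes at least 2-fold higher was 7 and became 2 with the floor at the 75th percentile and 4 with the mean of probe sets (5.41% and 6.15%, against 7.20% and 6.99% of all genes). The count at least 2-fold lower was 6 and became 10 without a floor and with the floor at the 25th percentile, and 2 at the 75th. At the 75th these 5.41% compare with 3.71% of all genes. Without a floor and with the 25th percentile floor the share was 15.4%, taken over the same 65 genes that passed the main floor. All genes had 15.9% and 12.5% lower in these settings, but they include genes under the main floor. The sets are thus unlike, and whether the excess of lower genes holds in these 2 settings cannot be read from them. The median log2 difference of -0.07 was -0.0013 with median centring, which shifted all genes by a similar amount (median 0.07), and -0.14 with quantile normalisation (all genes -0.04). RAB32 fell to 0.35 without _s_at and _x_at probe sets. RAB38 stayed past 2-fold and RAB27A within it wherever they had a value. Of 88 values of the other called genes under alternatives 79 stayed past 2-fold, and none changed sign. Restriction to genes above the floor on both arrays was chosen after seeing the data. No paired analysis was possible because each group has 1 array. For the same reason no replicate could be left out.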

Other observations

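Probe sets that the annotation assigns to a gene of the set together with another were read apart, 11 in all. Those shared by RAB6A, the main Golgi Rab, with RAB6C or RAB6D read 2144 against 2485 (log2 difference -0.21), 1670 against 2180 (-0.39) and 98.3 against 133 (-0.44), and 1 was below the floor on both arrays, as was the probe set of RAB6A alone. Those shared by RAB34 and NARR read 2003 against 1695 (0.24) and 1648 against 1331 (0.31). RAB4B with its read-through partners had 4 probe sets from -0.64 to 0.0022. Apart from the RAB43 probe set above, all of these were within 2-fold.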
